A study of Homo sapiens with 4 samples.

Results

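The NRF2 pathway and the enzymes it feeds were followed across 41 genes in MDA-MB-231 cells, which come from a triple-negative breast tumour and grow as an established human line. The genes were chosen by symbol, as listed members of the pathway and of glutathione and pentose phosphate metabolism, and all 41 were found among the 61471 gene names of the deposited tables. They fell into 5 regulators, 14 glutathione genes, 6 genes of thioredoxin and peroxide removal, 4 iron and heme genes, 7 quinone and xenobiotic genes and 5 genes of NADPH supply. RNA was sequenced in 4 libraries. Of these, 2 came from EGFP negative cells, labelled with increased extravasation (exit from a blood vessel), and 2 from EGFP positive cells, labelled without it. All 4 libraries are labelled wild type in genotype and transfected with both H2B-EGFP, a green fluorescent histone fusion, and CMV-RFP, a red fluorescent protein under a viral promoter. The cells grew in DMEM with serum, penicillin and streptomycin. The series title names polyploidy, and the labels used here give no ploidy, clone or sorting step for either group. Each EGFP class has only 1 extravasation status, so the effects of these cannot be told apart.

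NRF2, the product of NFE2L2, is a transcription factor that the adaptor KEAP1 normally holds for degradation. Oxidants and electrophiles modify KEAP1, and NRF2 then pairs with small MAF proteins at antioxidant response elements of its target genes, where the repressor BACH1 competes for the same sites. The targets make glutathione, reduce peroxides and thioredoxin, detoxify quinones, store iron and regenerate NADPH, the reducing power that these reactions use. In many cancers the pathway is switched on by mutation of its regulators.

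Gene counts summed to 12635576 and 11620076 in EGFP negative libraries 1 and 2, and to 11620005 and 11445076 in EGFP positive libraries 1 and 2. A count of 3, taken as the floor of detection, was 0.237 to 0.262 counts-per-million (CPM) in each library. Such floors cover counting error only. The line's markers were present in all libraries, with VIM at 74960 and 65387 counts in EGFP negative and 48741 and 48170 in EGFP positive libraries. CD44 had 7713 and 7725 counts in EGFP negative and 9926 and 10045 in EGFP positive libraries. KRT18 had 5229 and 4398 counts in EGFP negative and 5159 and 4676 in EGFP positive libraries. ESR1, PGR and CDH1, which this line lacks or hardly expresses, had 0 to 3 counts per library. As a check of the EGFP labels, H2BC11, a histone H2B gene, had 88 and 64 counts in EGFP negative and 7733 and 7352 in EGFP positive libraries. Among markers of other cells, CD3E, CDH5 and DCN were at 0 in all libraries. The 3 endothelial markers summed to 3.17 and 3.7 CPM in EGFP negative and 1.03 and 0.961 CPM in EGFP positive libraries, nearly all from PECAM1 (39 and 43 against 9 and 9 counts). The 3 leukocyte markers summed to 1.11 and 1.46 CPM against 0.688 and 0.437 CPM, and the 3 fibroblast markers to 22.1 and 13.9 CPM against 23.7 and 21.5 CPM, mostly COL1A1. The part of these markers in the results was not tested.

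Several enzymes of quinone, iron and NADPH metabolism were higher in EGFP negative cells, while NFE2L2, KEAP1 and the genes that synthesise glutathione did not pass the test. NQO1, a quinone reductase and the best known NRF2 target, had the largest change at 2.53-fold higher. BLVRB, IDH1, FTH1, CAT, PGD, EPHX1 and FTL were also higher, by 1.5-fold to 1.92-fold. GSTM3 was the member with the largest fall, to 0.512 of the EGFP positive level. Of the 41 members, 40 passed the filter on low counts, and at an adjusted p under 0.05 EGFP negative cells had 14 of these higher and 2 lower (edgeR's quasi-likelihood test, two-sided, Benjamini-Hochberg over all genes tested). Called members were thus 40% of those tested, against 18.9% of the 16413 genes tested. The members were chosen with earlier results of these data known, so these shares are no test of the pathway. In one direction, 9.4% of all genes were higher and 9.46% lower. Groups did not overlap for 30 of the 40 members, against 57.4% of all tested genes. The median log2 fold change was 0.21 over the 40 members and -0.003 over all tested genes. A fold change is EGFP negative over EGFP positive throughout. Separate cultures are not stated for the libraries, and the p-values then reflect a spread that may be technical. Bulk RNA cannot tell more cells with a transcript from more transcript per cell. A permutation of 2 against 2 libraries cannot go below p = 0.33.

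**Figure D1:**
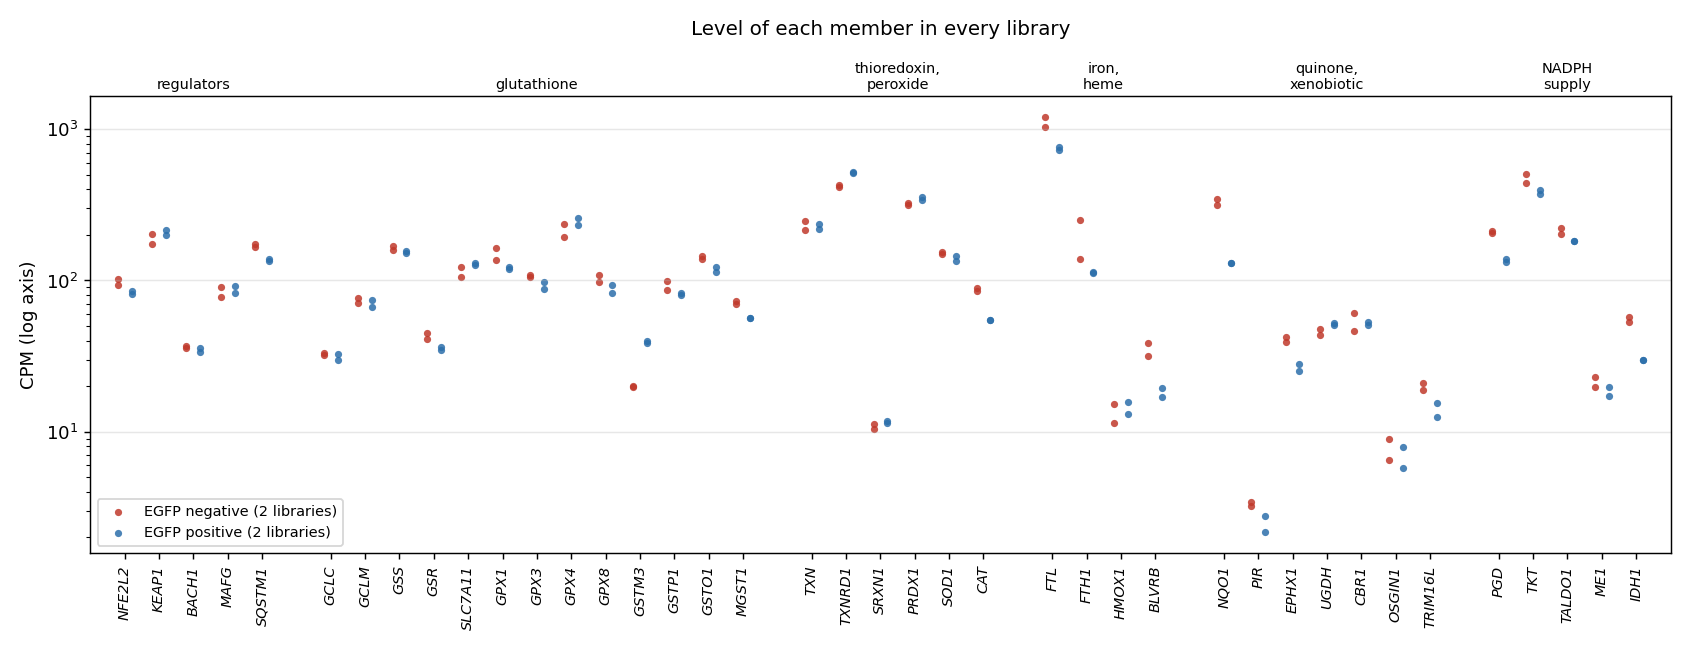
Level of the 40 tested members in each library, in CPM on a log axis, grouped by class, with the 2 EGFP negative libraries (red) left of the 2 EGFP positive libraries (blue). FTL is the most abundant at 1028 to 1200 CPM in EGFP negative and 725 to 757 CPM in EGFP positive libraries, and NQO1 and GSTM3 show the widest gaps between groups.

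**Figure D2:**
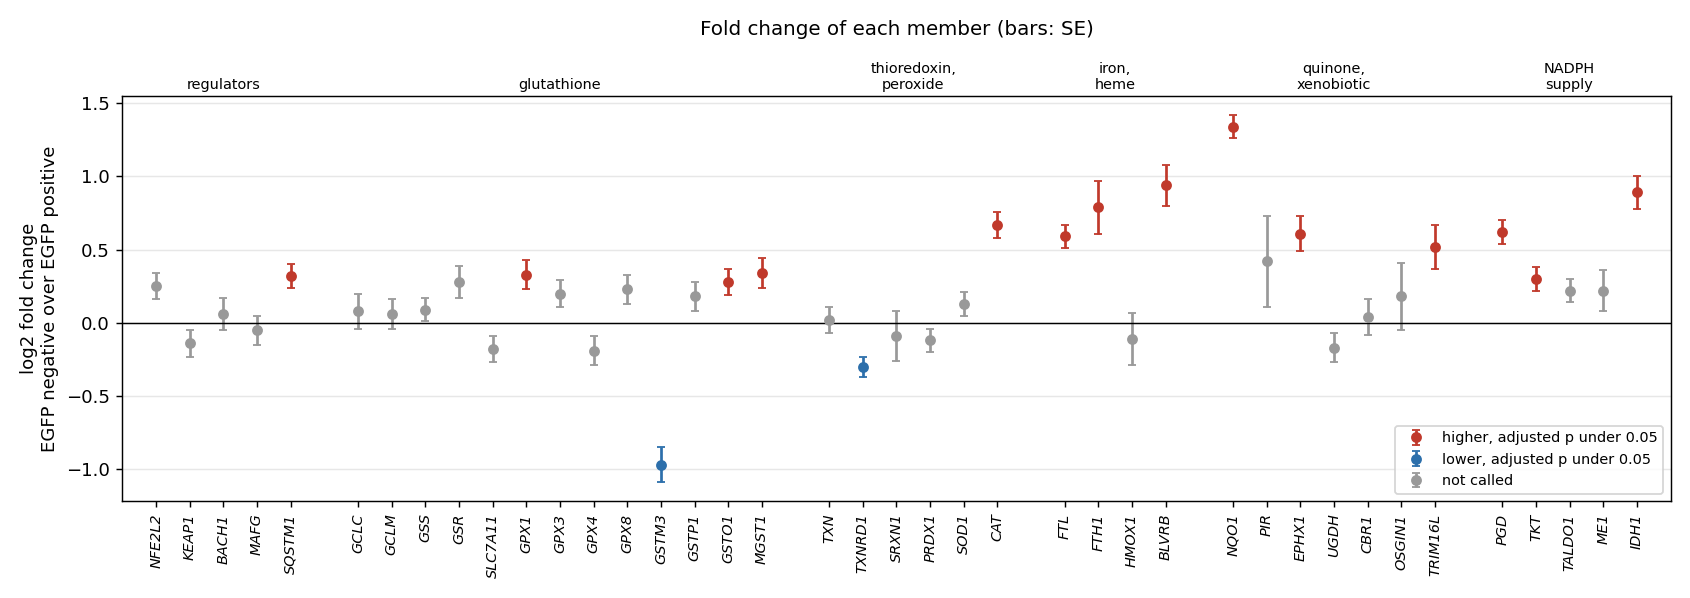
Log2 fold change of each tested member, EGFP negative over EGFP positive, with its SE as bars, coloured by call at an adjusted p of 0.05. The 14 higher members lie between 0.28 (GSTO1) and 1.34 (NQO1), and the 2 lower ones are TXNRD1 at -0.30 and GSTM3 at -0.97.

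Among the 5 regulators only SQSTM1 passed the test (20% called, against 18.9% of all tested genes). SQSTM1 encodes p62, a cargo receptor of autophagy that sequesters KEAP1 and is itself an NRF2 target. It was at 174 and 166 CPM in EGFP negative libraries, against 135 and 138 CPM in EGFP positive ones. The groups did not overlap, and the log2 fold change was 0.32 ± 0.08 (SE, edgeR adjusted p = 0.015). Its call was lost without EGFP positive library 1 (log2 fold change 0.31, edgeR adjusted p = 0.25) or library 2 (0.33, adjusted p = 0.2). NFE2L2 itself was at 93.9 and 103 CPM in EGFP negative and 80.8 and 85.6 CPM in EGFP positive libraries, without overlap, and did not pass (log2 fold change 0.25 ± 0.09, SE, edgeR adjusted p = 0.084). It passed with the replicate number as a block (adjusted p = 0.015) and without EGFP negative library 1 (log2 fold change 0.31, edgeR adjusted p = 0.0018). KEAP1 had the highest level per length of the class, a mean of 68.4 CPM per kb of exon in EGFP negative and 75.6 in EGFP positive cells. Its libraries overlapped, at 203 and 175 CPM in EGFP negative and 217 and 201 CPM in EGFP positive cells (log2 fold change -0.14 ± 0.09, SE, edgeR adjusted p = 0.31). Without EGFP negative library 1 KEAP1 passed as lower (-0.26, edgeR adjusted p = 0.0026), and without library 2 its log2 fold change was -0.03. BACH1 was at 36.8 and 35.7 CPM in EGFP negative and 36 and 33.5 CPM in EGFP positive libraries. MAFG, a small MAF partner of NRF2, was at 90.8 and 77.7 CPM in EGFP negative and 92.2 and 82.8 CPM in EGFP positive libraries, and the libraries of both genes overlapped. Counting was by gene name without strand, and 43.7% of the exonic bases of NFE2L2 and 41.3% of those of SQSTM1 were also exons of another gene, mainly HNRNPA3 and MRNIP. The command in the file headers held no option to assign a read to several genes. CPM per kb divides by the full exonic length, shared bases included, so the rank of KEAP1 in its class is uncertain.

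The letters of the antioxidant response element, TGACNNNGC, were searched on both strands of RefSeq promoter windows (GRCh38.p14, 250 bases before to 50 after a start site), to show which members carry them close to a start. Of the members 33 matched a window by symbol, 47 windows in all. The letters were in 14 of the 47 windows (29.8%), against 13.3% of all 35114 windows and 14.5% of those of tested genes. Among windows of members higher in EGFP negative cells 5 of 19 held them (26.3%). Among those of the lower members 2 of 3 held them (66.7%), all of TXNRD1, and among those of members not called 6 of 24 (25%). A gene can have several windows. By gene, 5 of 12 higher members (41.7%), 1 of 2 lower (50%) and 6 of 18 not called (33.3%) had a match, against 19.4% of tested genes. Matches that begin with TGACTCA, the letters bound by AP-1 factors, made up 3 member windows (6.38%, against 0.561% of all windows). These were GSTP1, PIR and ME1, none of which passed the test. The only NQO1 window had no match in these 300 bases, which says nothing of elements farther from the start. The windows of 2 higher members, IDH1 and EPHX1, and of 2 that did not pass, GSTP1 and ME1, are shown, with matches in capitals as they read on the gene's strand. The IDH1 window is chr2:208255022-208255321, minus strand. The EPHX1 window is chr1:225825104-225825403, plus strand, the GSTP1 window chr11:67583562-67583861, plus strand, and the ME1 window chr6:83431002-83431301, minus strand. The match in IDH1 starts 143 bases before its start site, that in EPHX1 78, that in GSTP1 66 and the TGACTCAGC of ME1 137 bases before. ME1 has another match on the opposite strand, 11 bases after the start. The other IDH1 window and the other 2 EPHX1 windows had none.
IDH1: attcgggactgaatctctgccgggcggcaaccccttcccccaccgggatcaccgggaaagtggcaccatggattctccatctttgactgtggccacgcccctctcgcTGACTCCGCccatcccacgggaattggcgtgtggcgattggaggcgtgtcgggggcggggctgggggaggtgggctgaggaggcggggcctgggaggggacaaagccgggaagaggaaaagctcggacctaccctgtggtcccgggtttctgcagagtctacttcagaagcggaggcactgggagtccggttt
EPHX1: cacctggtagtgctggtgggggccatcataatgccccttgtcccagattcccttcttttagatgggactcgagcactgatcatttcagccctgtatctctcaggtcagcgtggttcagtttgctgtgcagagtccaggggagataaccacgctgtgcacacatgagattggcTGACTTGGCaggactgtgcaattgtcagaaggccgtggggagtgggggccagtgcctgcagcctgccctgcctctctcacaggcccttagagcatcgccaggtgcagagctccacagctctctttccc
GSTP1: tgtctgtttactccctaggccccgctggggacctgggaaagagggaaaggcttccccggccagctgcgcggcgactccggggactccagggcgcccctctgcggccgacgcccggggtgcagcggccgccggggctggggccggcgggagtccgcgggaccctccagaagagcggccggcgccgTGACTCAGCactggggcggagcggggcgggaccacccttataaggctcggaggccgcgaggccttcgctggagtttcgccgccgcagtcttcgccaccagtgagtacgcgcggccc
ME1: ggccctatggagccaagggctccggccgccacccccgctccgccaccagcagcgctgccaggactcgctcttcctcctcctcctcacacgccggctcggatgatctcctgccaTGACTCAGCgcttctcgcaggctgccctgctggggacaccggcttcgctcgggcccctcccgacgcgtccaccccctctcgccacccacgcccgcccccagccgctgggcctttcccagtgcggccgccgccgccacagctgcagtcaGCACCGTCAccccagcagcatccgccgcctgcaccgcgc

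Of the 13 glutathione genes tested, 3 were higher, 1 was lower and 9 did not pass (30.8% called, against 18.9% of all tested genes). GCLC and GCLM encode the catalytic and modifier subunits of glutamate-cysteine ligase, the rate-limiting step. GCLC was at 32.4 and 33.3 CPM in EGFP negative and 29.8 and 32.5 CPM in EGFP positive libraries. GCLM was at 76.9 and 70.5 CPM in EGFP negative and 74.3 and 66.7 CPM in EGFP positive libraries. GSS, glutathione synthetase, was at 169 and 160 CPM in EGFP negative and 157 and 151 CPM in EGFP positive libraries. Only GSS had groups that did not overlap, and all 3 had log2 fold changes of 0.06 to 0.09. SLC7A11, the cystine importer that feeds synthesis, was at 106 and 122 CPM in EGFP negative and 127 and 131 CPM in EGFP positive libraries, without overlap but short of the threshold (log2 fold change -0.18 ± 0.09, SE, edgeR adjusted p = 0.20). GSR, which recycles oxidised glutathione with NADPH, was at 45.1 and 41.1 CPM in EGFP negative and 36.3 and 34.6 CPM in EGFP positive libraries (log2 fold change 0.28 ± 0.11, SE, edgeR adjusted p = 0.093).

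GSTM3, a mu-class glutathione transferase, was the only glutathione member that passed as lower. GPX4 and SLC7A11 also had negative log2 fold changes and were not called. It was at 19.9 and 20.2 CPM in EGFP negative libraries and 40 and 38.5 CPM in EGFP positive ones, with replicates within 2 CPM of each other. Its log2 fold change of -0.97 ± 0.12 (SE, edgeR adjusted p = 5.8e-05) held in all 12 alternatives, between -0.99 and -0.94. GSTM3 lies on chromosome 1 (109733932 to 109741038, minus strand, GRCh38) in a cluster of related genes whose reads could be split between them. Of other mu-class genes, GSTM4 was also lower (log2 fold change -0.50, edgeR adjusted p = 0.03). GSTM1 (0.22) and GSTM2 (0.39) had positive log2 fold changes and did not pass. The transferases GSTO1 and MGST1, an omega-class and a microsomal enzyme, were higher, opposite to GSTM3. GSTO1 was at 139 and 146 CPM in EGFP negative libraries and 123 and 113 CPM in EGFP positive ones (log2 fold change 0.28 ± 0.09, SE, edgeR adjusted p = 0.039). MGST1 was at 69.5 and 73.7 CPM, against 56.4 and 56.7 CPM in EGFP positive libraries (log2 fold change 0.34 ± 0.10, SE, edgeR adjusted p = 0.023). Both had groups that did not overlap, and both lost their call with DESeq2 (adjusted p = 0.067 for GSTO1 and 0.052 for MGST1), with no filter on low counts, and without either EGFP positive library. GSTP1, the pi-class enzyme, was at 98.5 and 85.9 CPM in EGFP negative and 82.8 and 80.2 CPM in EGFP positive libraries and did not pass (edgeR adjusted p = 0.23).

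Of the glutathione peroxidases, a family named for reducing peroxides with glutathione, only GPX1 passed. GPX1, the cytosolic selenoenzyme, was at 165 and 137 CPM in EGFP negative libraries and 122 and 119 CPM in EGFP positive ones (log2 fold change 0.33 ± 0.10, SE, edgeR adjusted p = 0.032). The groups did not overlap, and EGFP negative library 1 was the highest. Without that library the log2 fold change was 0.18 and the edgeR adjusted p = 0.074, and without EGFP positive library 1 or 2 the adjusted p was 0.18 or 0.27. With no filter on low counts it was 0.063. Of the exonic bases of GPX1, 39.9% were also exons of ENSG00000290318, which had 6 to 11 counts per library. GPX4, which protects membrane lipids from peroxidation and so limits ferroptosis, had the highest level per length of the class, a mean of 160 CPM per kb in EGFP negative and 182 in EGFP positive cells. It was at 237 and 193 CPM in EGFP negative and 258 and 232 CPM in EGFP positive libraries, which overlapped (log2 fold change -0.19 ± 0.10, SE, edgeR adjusted p = 0.22). The secreted GPX3 was at 105 and 108 CPM in EGFP negative and 97.2 and 88.4 CPM in EGFP positive libraries. GPX8, of the endoplasmic reticulum, was at 97.4 and 109 CPM in EGFP negative and 82.5 and 92.9 CPM in EGFP positive libraries. Both had groups that did not overlap, and neither passed (edgeR adjusted p = 0.15 for GPX3 and 0.12 for GPX8). GPX2, an epithelial form, had 0 and 0 counts in EGFP negative and 1 and 3 in EGFP positive libraries and was not tested. With the replicate block GPX4 and GPX8 passed, at adjusted p = 0.027 and 0.019, as did GSR at 0.03. Without EGFP negative library 1, GPX4 (log2 fold change -0.35, edgeR adjusted p = 1.5e-05), GPX8 (0.31, 0.0014) and GPX3 (0.21, 0.039) passed. Without EGFP negative library 2, SLC7A11 (log2 fold change -0.28, edgeR adjusted p = 0.0032), GSTP1 (0.28, 0.0049) and GSR (0.35, 0.0078) passed.

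In thioredoxin and peroxide removal 1 of 6 genes was higher and 1 lower (33.3% called, against 18.9% of all tested genes). TXNRD1, which reduces thioredoxin with NADPH and is commonly read as an NRF2 target, was lower in EGFP negative cells. It was at 416 and 426 CPM in EGFP negative libraries and 511 and 524 CPM in EGFP positive ones. The groups lay well apart relative to their replicates, with a log2 fold change of -0.30 ± 0.07 (SE, edgeR adjusted p = 0.011), but the call was lost without either EGFP positive library (edgeR adjusted p up to 0.28). TXN, thioredoxin itself, had the highest level per length of the class, a mean of 314 CPM per kb in EGFP negative and 310 in EGFP positive cells. Its libraries overlapped at 249 and 214 CPM in EGFP negative and 237 and 220 CPM in EGFP positive cells. PRDX1, a peroxiredoxin, was at 315 and 325 CPM in EGFP negative and 356 and 339 CPM in EGFP positive libraries (log2 fold change -0.12 ± 0.08, SE, edgeR adjusted p = 0.33). Of the exonic bases of PRDX1, 29.8% were also exons of MMACHC, which had 216 to 310 counts per library. SRXN1, which repairs oxidised peroxiredoxins, was at 11.3 and 10.5 CPM in EGFP negative and 11.7 and 11.5 CPM in EGFP positive libraries. Of its exonic bases 90.7% were also exons of ENSG00000270299, which had 0 counts in every library, so its level is uncertain.

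CAT, catalase, was the member of this class that was higher. It was at 85.8 and 88.7 CPM in EGFP negative libraries, against 54.8 and 54.9 CPM in EGFP positive ones. The replicates nearly coincided within each group, and the log2 fold change was 0.67 ± 0.09 (SE, edgeR adjusted p = 0.00018), between 0.65 and 0.69 in all 11 alternatives, each of which kept the call. SOD1, the cytosolic superoxide dismutase, was at 155 and 150 CPM in EGFP negative and 145 and 134 CPM in EGFP positive libraries (edgeR adjusted p = 0.34).

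Iron and heme genes were higher in 3 of 4 cases (75% called, against 18.9% of all tested genes). FTL, the ferritin light chain (chromosome 19, 48965309 to 48966879, plus strand, GRCh38), was the most abundant member, with a mean of 1279 CPM per kb in EGFP negative and 850 in EGFP positive cells. It was at 1200 and 1028 CPM in EGFP negative libraries and 757 and 725 CPM in EGFP positive ones. The groups did not overlap, and the log2 fold change was 0.59 ± 0.08 (SE, edgeR adjusted p = 0.00019). BLVRB, biliverdin reductase B, which acts late in heme breakdown, was at 38.6 and 31.7 CPM in EGFP negative libraries and 19.6 and 17.1 CPM in EGFP positive ones. Its log2 fold change was 0.94 ± 0.14 (SE, edgeR adjusted p = 0.00031), and FTL and BLVRB kept their calls in all 12 alternatives. HMOX1, the inducible heme oxygenase that is often the most responsive NRF2 and BACH1 target, had overlapping libraries, at 15.3 and 11.5 CPM in EGFP negative and 15.7 and 13.2 CPM in EGFP positive libraries (log2 fold change -0.11 ± 0.18, SE, edgeR adjusted p = 0.74).

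FTH1, the ferritin heavy chain that oxidises iron for storage, differed between the replicates of a group. It was at 251 and 138 CPM in EGFP negative libraries and 113 and 112 CPM in EGFP positive ones. EGFP negative library 1 stood far above the other 3, and the log2 fold change of 0.79 ± 0.18 (SE, edgeR adjusted p = 0.0079) was 0.29 without that library and 1.17 without EGFP negative library 2. DESeq2 did not call it (adjusted p = 0.24). FTH1 has 27 processed copies by name in the tables, which together held 65.1% of the counts of gene plus copies, and 57.6% of its exonic bases were also exons of BEST1. The copies were at 321 and 369 CPM in EGFP negative libraries and 230 and 238 CPM in EGFP positive ones. They were thus lower in EGFP negative library 1, where the gene was higher, than in library 2. Copies took 56.1% of the sum in EGFP negative library 1, against 72.8% in library 2, and 67.1 and 67.9% in the EGFP positive libraries. Gene and copies added together gave 573 and 507 CPM in EGFP negative and 343 and 350 CPM in EGFP positive libraries, with a log2 fold change of 0.64 ± 0.08 (SE, edgeR adjusted p = 7.5e-05). The sum thus kept the direction with an SE less than that of the gene alone.

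**Figure D3:**
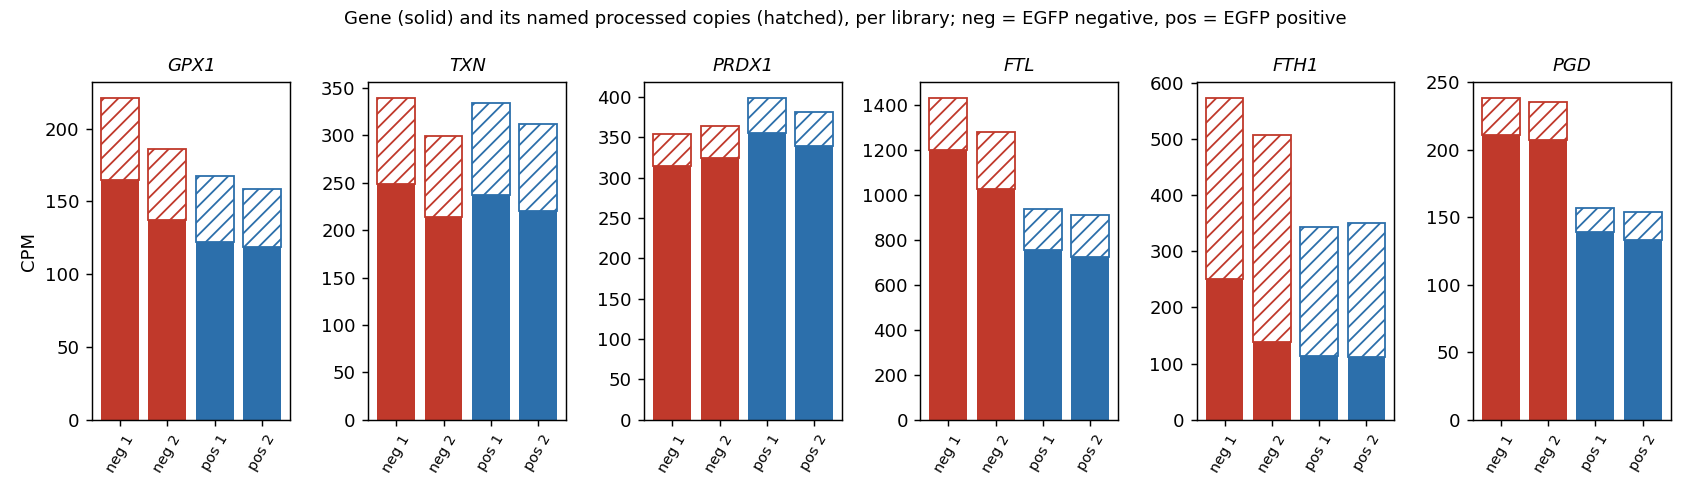
CPM per library on the gene (solid) and on its named processed copies (hatched) for the 6 members whose copies held over 10% of the sum, EGFP negative libraries (red) left of EGFP positive ones (blue). For FTH1 the solid part is 251 and 138 CPM in the EGFP negative libraries, while the whole bars of 573 and 507 CPM lie close together.

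Copies were also counted for GPX1 (25.9% of the sum), TXN (28.4%), FTL (18.5%), PGD (12.1%) and PRDX1 (10.9%). Adding them left each of these calls as it was and turned the sign of TXN, which was not called, with log2 fold changes of 0.32 for GPX1, -0.02 for TXN, 0.55 for FTL, 0.61 for PGD and -0.11 for PRDX1. The copies of FTL were at 229 and 251 CPM in EGFP negative libraries and 180 and 187 CPM in EGFP positive ones. Reads that match a gene and its copy equally could be placed on either, so the levels of these genes are uncertain.

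Quinone and xenobiotic genes held the largest change, with 3 of 7 tested higher and 0 lower (42.9% called, against 18.9% of all tested genes). NQO1 (chromosome 16, 69706996 to 69726668, minus strand, GRCh38) reduces quinones by 2 electrons and so keeps them from redox cycling. It was at 315 and 347 CPM in EGFP negative libraries and 130 and 131 CPM in EGFP positive ones. The lowest EGFP negative library was far above both EGFP positive ones, and the log2 fold change was 1.34 ± 0.08 (SE, edgeR adjusted p = 8.6e-08), between 1.28 and 1.41 in its 11 alternatives. Of the exonic bases of NQO1, 20.2% were also exons of ENSG00000261602, which had 0 counts in every library. NQO1 ranked 248 of 16413 tested genes by log2 fold change, counted from the most positive. EPHX1, the microsomal epoxide hydrolase, was at 42.3 and 39.3 CPM in EGFP negative libraries, against 25.3 and 28.1 CPM in EGFP positive ones (log2 fold change 0.61 ± 0.12, SE, edgeR adjusted p = 0.002). Without EGFP positive library 1 its edgeR adjusted p was 0.05 and the call was lost. TRIM16L, a TRIM-family gene, was at 19 and 20.9 CPM in EGFP negative libraries and 15.4 and 12.5 CPM in EGFP positive ones (log2 fold change 0.52 ± 0.15, SE, edgeR adjusted p = 0.031). It lost its call without EGFP positive library 2 (log2 fold change 0.37, edgeR adjusted p = 0.39), with DESeq2 (0.095) and with no filter. TRIM16L resembles TRIM16, which was also higher (19.4 and 19.5 CPM against 12.6 and 12.9 CPM in EGFP positive libraries, edgeR adjusted p = 0.009), and reads shared between them make both uncertain.

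The other 4 genes of that class did not pass. CBR1, a carbonyl reductase, was at 46.4 and 60.9 CPM in EGFP negative and 53.1 and 50.9 CPM in EGFP positive libraries. Of its exonic bases 18.9% were also exons of CBR1-AS1 or ENSG00000289001, each with 0 to 2 counts per library. UGDH, which makes the sugar donor for glucuronidation, was at 43.4 and 47.7 CPM in EGFP negative and 52.2 and 50.5 CPM in EGFP positive libraries. OSGIN1, an oxidative stress response gene, was at 9 and 6.51 CPM in EGFP negative and 7.96 and 5.73 CPM in EGFP positive libraries. Of these 4 only UGDH and PIR had groups that did not overlap. In the whole class 5 of 7 genes had such groups, against 57.4% of all tested genes. PIR, pirin, had 40 and 40 counts in EGFP negative and 32 and 25 in EGFP positive libraries (log2 fold change 0.42 ± 0.31, SE, edgeR adjusted p = 0.39), where the depth leaves a wide error.

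All 5 genes of NADPH supply had groups that did not overlap, each higher in EGFP negative libraries, and 3 passed the test. Over all tested genes 57.4% had groups that did not overlap and 18.9% were called. IDH1, the cytosolic isocitrate dehydrogenase that makes NADPH, was at 53.3 and 57.7 CPM in EGFP negative libraries and 29.8 and 29.9 CPM in EGFP positive ones. Its log2 fold change was 0.89 ± 0.11 (SE, edgeR adjusted p = 5e-05). PGD, the second NADPH-forming enzyme of the oxidative pentose phosphate branch, was at 211 and 207 CPM in EGFP negative libraries and 139 and 133 CPM in EGFP positive ones. Its log2 fold change was 0.62 ± 0.08 (SE, edgeR adjusted p = 0.00011), and both IDH1 and PGD kept their calls in all 12 alternatives. In the non-oxidative branch TKT, transketolase, was at 505 and 442 CPM in EGFP negative libraries and 396 and 374 CPM in EGFP positive ones (log2 fold change 0.30 ± 0.08, SE, edgeR adjusted p = 0.022). It was 0.20 without EGFP negative library 1, and its call was lost without EGFP positive library 1 (edgeR adjusted p = 0.16) or library 2 (0.36). TALDO1, transaldolase, had the highest level per length of the class, a mean of 173 CPM per kb in EGFP negative and 148 in EGFP positive cells. It was at 223 and 204 CPM in EGFP negative and 183 and 183 CPM in EGFP positive libraries and did not pass (log2 fold change 0.22 ± 0.08, SE, edgeR adjusted p = 0.079), but did with the replicate block (0.011) and without EGFP negative library 2 (log2 fold change 0.30, edgeR adjusted p = 0.00023). ME1, malic enzyme, was at 19.8 and 23.1 CPM in EGFP negative and 17.2 and 19.7 CPM in EGFP positive libraries (edgeR adjusted p = 0.35).

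**Figure D4:**
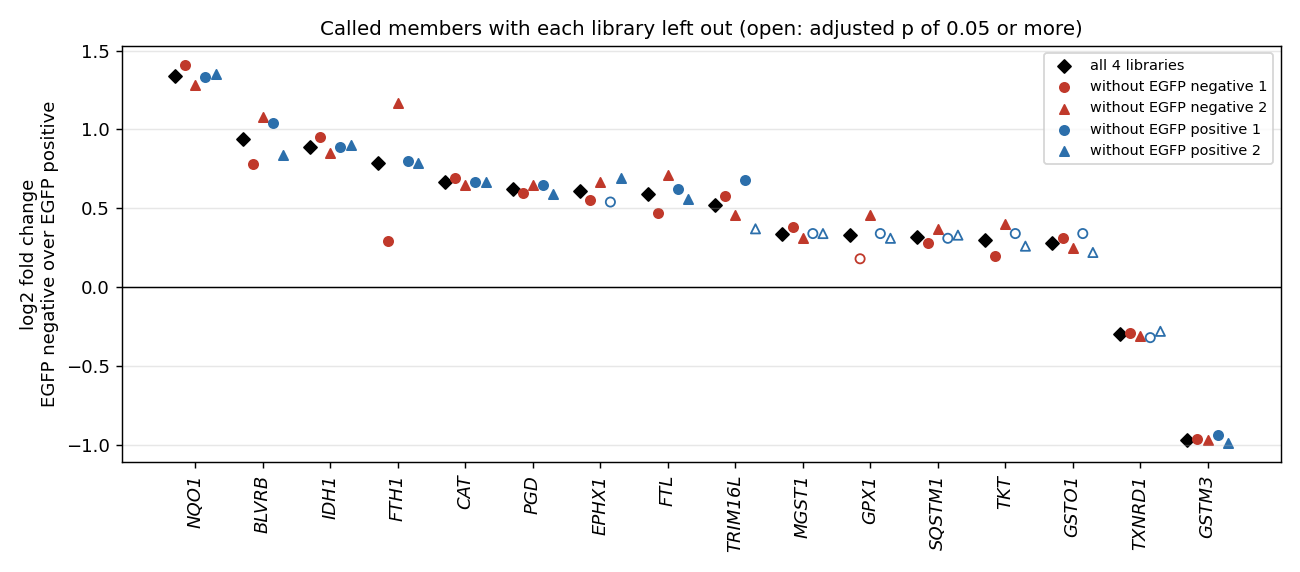
Log2 fold change of the 16 called members with all 4 libraries and with each left out in turn. Filled symbols have an adjusted p under 0.05 and open ones do not; NQO1 stays between 1.28 and 1.41 while FTH1 runs from 0.29 to 1.17.

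Of the 16 called members 8 kept the call with each library left out: GSTM3, CAT, FTL, FTH1, BLVRB, NQO1, PGD and IDH1. Without EGFP positive library 1, 8 members were higher and 1 lower, when 9.13% of all tested genes were called. Without EGFP positive library 2 the counts were also 8 and 1, with 8.85% of all genes called. Without EGFP negative library 1, 16 were higher and 4 lower (27.4% of all genes called), and without library 2, 17 and 3 (30.1%). The counts of called members and of all called genes thus moved the same way with the library left out. In such a fit the spread came only from the group that kept 2 libraries. The EGFP negative libraries differed more from each other (chi-square per degree of freedom 6.67) than the EGFP positive ones (2.12). A call lost or gained with a library left out therefore does not by itself show dependence on that library. DESeq2 called 10 members higher and 2 lower (12.4% of all genes called), and the fit with the replicate block 18 and 3 (28.7%).

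Other genes of the pathway were taken from a list of 103 by textbook role, of which 95 were tested. In EGFP negative cells 20 of these were higher and 9 lower, 30.5% called against 18.9% of all tested genes, with a median log2 fold change of 0.05. This list too was chosen with earlier results of these data known, so its share is no test of the pathway. The quinone and xenobiotic class had 6 higher and 0 lower of 11 tested (54.5% called, against 18.9% of all tested genes). ALDH3A1, an aldehyde dehydrogenase, had 183 and 156 counts in EGFP negative libraries and 3 and 1 in EGFP positive ones (edgeR adjusted p = 5.5e-08). AKR1C3, an aldo-keto reductase, was at 24.3 and 27.9 CPM in EGFP negative libraries and 3.29 and 2.86 CPM in EGFP positive ones (edgeR adjusted p = 6.1e-08). AKR1C1 had 53 and 46 counts in EGFP negative and 6 and 10 in EGFP positive libraries (edgeR adjusted p = 0.00037), and AKR1C2 47 and 32 against 7 and 2 (edgeR adjusted p = 0.00079). The AKR1C genes are related in sequence, so some reads could be split between them. AKR1B10, another classical target, had 1 and 3 counts in EGFP negative and 0 and 1 in EGFP positive libraries and was not tested.

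The further glutathione genes had 7 higher and 4 lower of 30 tested (36.7% called, against 18.9% of all tested genes). ABCC3, which exports glutathione conjugates and glucuronides, was at 24.7 and 21 CPM in EGFP negative libraries and 5.28 and 5.21 CPM in EGFP positive ones (log2 fold change 2.12 ± 0.17, SE, edgeR adjusted p = 1.4e-06). GLRX, glutaredoxin, was at 35 and 45.6 CPM in EGFP negative and 24 and 20.6 CPM in EGFP positive libraries (edgeR adjusted p = 0.00081). LANCL1, a glutathione-binding protein, and MGST2, a microsomal transferase, were also higher, with log2 fold changes of 0.53 and 0.66. LANCL1 lost its call without EGFP positive library 1 (0.40, edgeR adjusted p = 0.15) and MGST2 without library 2 (0.64, edgeR adjusted p = 0.069).

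In NADPH supply 2 were higher and 2 lower of 14 tested (28.6% called, against 18.9% of all tested genes). NNT, the mitochondrial transhydrogenase, was at 146 and 147 CPM against 120 and 116 CPM in EGFP positive libraries (edgeR adjusted p = 0.017). ME2, the mitochondrial malic enzyme, was lower, at 25.1 and 27.7 CPM in EGFP negative and 38.8 and 40.3 CPM in EGFP positive libraries (log2 fold change -0.58 ± 0.12, SE, edgeR adjusted p = 0.0027). RPIA, ribose-5-phosphate isomerase, was lower at 31 and 24.3 CPM against 39.4 and 35.3 CPM in EGFP positive libraries (edgeR adjusted p = 0.036). The calls of NNT and RPIA were lost without either EGFP positive library, and that of RPIA also without EGFP negative library 2 (edgeR adjusted p = 0.091), with DESeq2 (0.095) and with no filter on low counts (0.075).

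Of the further regulators 1 was higher and 2 lower among 14 tested (21.4% called, near the 18.9% of all tested genes). The lower ones were the small MAF genes MAFK, at 38.4 and 26.7 CPM in EGFP negative and 49.8 and 50.9 CPM in EGFP positive libraries (edgeR adjusted p = 0.0068), and MAFF, at 41.9 and 35.2 CPM and 48.2 and 51.7 CPM (edgeR adjusted p = 0.036). RBX1, the RING subunit of the ligase that degrades NRF2, was higher at 70.7 and 65.6 CPM against 57.7 and 51.9 CPM in EGFP positive libraries (edgeR adjusted p = 0.044). MAFF and RBX1 lost their calls with DESeq2 (adjusted p = 0.1 for each), with no filter on low counts and without either EGFP positive library, and MAFF also without EGFP negative library 2 (edgeR adjusted p = 0.07). In thioredoxin and peroxide removal 2 of 16 were higher and 0 lower (12.5% called, below the 18.9% of all tested genes). SOD3, the extracellular superoxide dismutase, was at 25.8 and 19.5 CPM in EGFP negative and 10.4 and 10.6 CPM in EGFP positive libraries (edgeR adjusted p = 0.00034). PRDX5, a peroxiredoxin, was at 143 and 125 CPM against 106 and 94.2 CPM in EGFP positive libraries (edgeR adjusted p = 0.0083), a call lost without EGFP positive library 2 (edgeR adjusted p = 0.22).

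Among further iron and heme genes 2 were higher and 1 lower of 10 tested, all near the threshold. Called genes were thus 30%, against 18.9% of all tested genes. SLC11A2, an iron importer, was at 40.3 and 35.8 CPM in EGFP negative and 27.5 and 30.1 CPM in EGFP positive libraries (edgeR adjusted p = 0.029). BLVRA, the main biliverdin reductase, was at 43.5 and 42.4 CPM against 35.6 and 32.1 CPM (edgeR adjusted p = 0.042), and HMOX2, the constitutive heme oxygenase, at 39 and 42.8 CPM against 52.9 and 49.3 CPM in EGFP positive libraries (edgeR adjusted p = 0.049). All 3 lost their calls with DESeq2 (adjusted p of 0.083, 0.12 and 0.15), with no filter on low counts (0.066, 0.093 and 0.1) and without either EGFP positive library. The call of HMOX2 was lost also with RLE size factors (0.052) or upper quartile scaling (0.058) and without EGFP negative library 1 (0.056).

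**Figure D5:**
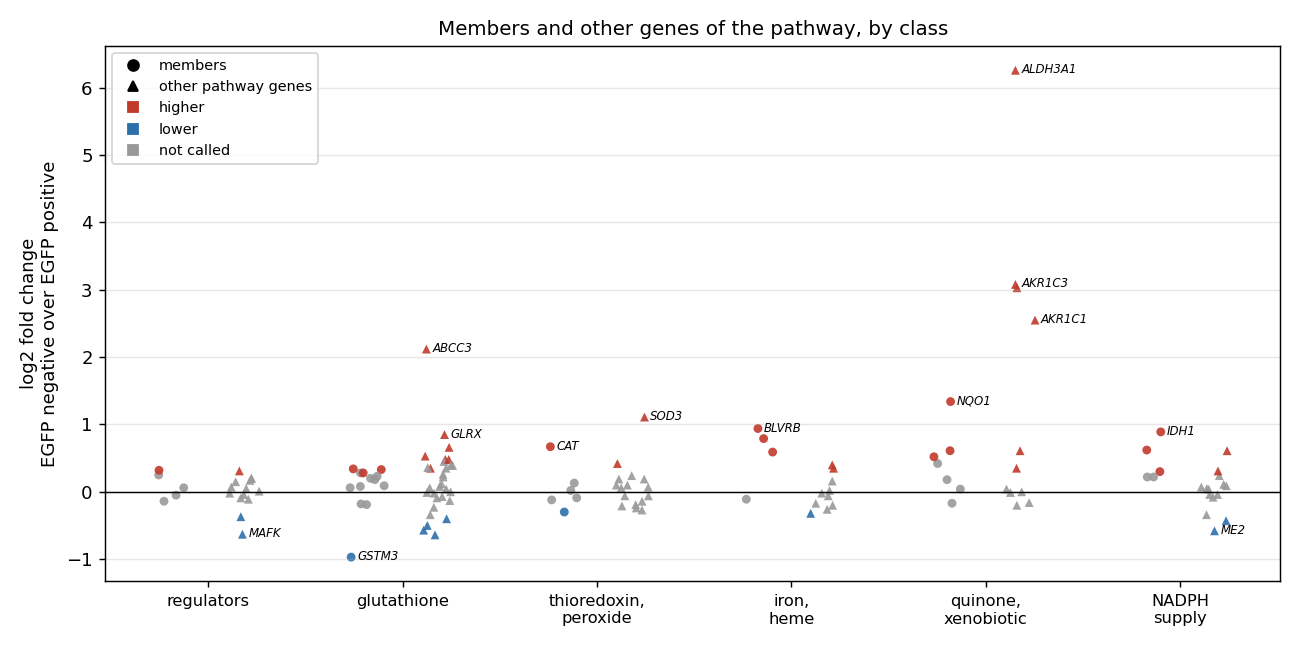
Log2 fold change, EGFP negative over EGFP positive, of the 40 tested members (circles) and the 95 other tested genes of the pathway (triangles) by class, coloured by call. The quinone and xenobiotic class holds the largest changes, with AKR1C3 at 3.08 and ALDH3A1 at 6.26; the last is fitted against 3 and 1 counts and depends on the fit's prior.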

How the data were processed

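The labels' protocols state polyA selection and a directional library kit. The deposited tables hold raw counts per gene name, which the authors made with featureCounts 2.0.1 from paired reads over exons of GENCODE 46 basic, with no strand option, per the file headers. The aligner is not given in the sources used here. The submitters' processing notes name Subread, GRCh37 and hg19, whereas the spans of all 41 members in the tables overlapped those of GENCODE 29 on GRCh38. Coordinates are GRCh38, and the build of the alignment is not known. Reads of overlapping and antisense genes could not be told apart.

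Genes were kept by filterByExpr (minimum count 10, minimum total 15). Calls came from edgeR's quasi-likelihood test (edgeR 4.0.16 under R 4.3.3). The model held EGFP group alone over the 4 libraries, with TMM factors of 0.987 to 1.009, and the threshold on the adjusted p was 0.05. CPM values use TMM-scaled library sizes, except those of the detection floor and of the cell markers, which use the unscaled summed counts. CPM per kb divides by the exonic length in the tables, bases shared with other genes included. The SE is the log2 fold change over the root of the F statistic. Replicate libraries differed by more than sampling noise (chi-square per degree of freedom 6.67 in EGFP negative and 2.12 in EGFP positive libraries), so none was counted as a duplicate. Processed copies are rows named by the member's symbol, P and an optional number. Alternatives were RLE and upper quartile scaling, no filter, a replicate block, a stricter filter that asked for a summed count of 100 and for 1 CPM in 2 libraries, limma-voom (limma 3.58.1), DESeq2 1.42.0, each library left out with the tested genes kept, and copies added. Left-out fits with 1 library in a group assume that it varies like the other group. Scripts were tested on simulated data, where 33 of 67 genes changed 1.5-fold were called (49.3%). A gene that did not pass is thus not shown to be unchanged. Figures used matplotlib 3.10.9.

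The naming rule asked for values per library of called members and of the member with the highest CPM per kb in each class, and those of the remaining members were added. Of the other pathway genes, up to 4 called ones per class with the smallest adjusted p were named. A gene that this rule selects in NADPH supply is not reported here. TRIM16, AKR1B10, H2BC11, GSTM1, GSTM2 and GSTM4 lie outside that rule and were chosen after their values were seen. The members and lists were chosen with earlier results of these data known.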

Additional observations from a re-analysis of the deposited data

How the results depend on the processing

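RLE size factors, upper quartile scaling, the stricter filter and limma-voom changed no member's call or sign, and adding processed copies changed none but the sign of TXN (log2 fold change -0.02). With each library left out, the count of members ran from 8 to 17 higher and 1 to 4 lower, that of the other pathway genes from 10 to 24 higher and 2 to 11 lower, and that of all genes from 720 to 2477 higher and 715 to 2465 lower. DESeq2 called 10 members higher and 2 lower, 2 other pathway genes lower (also 2 with no filter) and 997 genes lower in all, and the cause was not tested. The replicate numbers of the labels share only a number: same-numbered libraries' deviations correlated at 0.114 across genes, with only 2 pairs. With the replicate block 18 members were higher and 3 lower, 2407 genes were lower in all, and no member lost its call. Members with no call changed sign with a library left out: MAFG between -0.17 and 0.06, GCLM between -0.01 and 0.14, TXN between -0.10 and 0.13, HMOX1 between -0.33 and 0.09, CBR1 between -0.15 and 0.23 and OSGIN1 between -0.07 and 0.44. Counts were low for PIR, OSGIN1, SRXN1 and HMOX1, at under 16 CPM in every library. For SRXN1 90.7% of the exonic bases were shared with another gene, so the part of depth is not known.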
